A study of Mus musculus with 20 samples.

Results

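The genes described here encode the proteins of the cytosolic ribosome. They were chosen by symbol: Rpl or Rps followed by a number, the stalk genes Rplp0 to Rplp2, and Rpsa, with ribosomal S6 kinases and pseudogene symbols left out and with at least 1 TPM in at least 3 of the 10 libraries of a tissue. TPM is a relative abundance of transcripts, corrected for transcript length and summing to the same total in every library. Of 23412 gene symbols, 86 had such a name and 83 passed the filter. They are 49 genes of the large subunit, 33 of the small subunit, and Rps19bp1, a binding partner of Rps19 that the symbol pattern takes in although it is not a ribosomal protein. Rpl10l, Rpl39l and Rpl3l did not pass, with 0 to 0.11 TPM, 0 to 0.52 TPM and 0.16 to 0.77 TPM over the 20 libraries, while the lowest gene that passed, Rps27, had 5.05 to 13.3 TPM.

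A ribosome joins a large subunit, where peptide bonds form, to a small subunit, where the messenger RNA is read, and most of the proteins are present once in their subunit. Ribosomal protein genes are among the most abundant of a cell, and neurons use their products both in the cell body and near synapses. Most of the mRNAs start with a terminal oligopyrimidine tract, through which the mTOR pathway sets their translation, many of the genes carry small nucleolar RNAs in their introns, and a few have paralogs whose proteins take the same place in the ribosome, such as Rpl22 and Rpl22l1.

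Total RNA came from mouse hippocampus and amygdala at postnatal day 21, and mRNA libraries were sequenced to ask what NCoR1 and SMRT, corepressors of nuclear receptors, do in the developing brain. Each tissue had 3 NCoR1-KO, 3 SMRT-KO and 4 control libraries. The knockouts carry floxed alleles of the corepressor gene together with Snap25-IRES2-cre, a driver active across neurons, so that glia, vessels and other cells keep the gene. The labels do not say whether controls carried Cre or floxed alleles, nor that the libraries of a group came from separate animals, so the p-values below rest on sample-to-sample spread that may be technical.

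Ncor1 was at 41.9 to 61.1 TPM in hippocampus NCoR1-KO libraries, against 81.6 to 137 TPM in hippocampus controls, and at 32.1 to 39.0 TPM in amygdala NCoR1-KO libraries, against 71.3 to 127 TPM in amygdala controls. Its log2 difference passed limma's test in amygdala (-1.57 ± 0.16, SE, adjusted p = 0.00732, Benjamini-Hochberg) and not in hippocampus (-1.22 ± 0.20, adjusted p = 0.790), although the groups did not overlap in either tissue. Among controls, library 1 was lowest for Ncor1 in both tissues. It was at 81.6 TPM against 119 to 137 TPM in the other hippocampus controls. In amygdala it was at 71.3 TPM against 117 to 127 TPM. The cause was not tested. Markers of other regions differed between libraries. Summed TPM of 5 thalamus markers was 606 in SMRT-KO hippocampus 2 and 60.6 to 172 in the other 9 hippocampus libraries. Choroid plexus markers summed to 11475 TPM in NCoR1-KO hippocampus 3 and to 5737 TPM or less in the other hippocampus libraries. Whether dissections differed was not tested. Sequencing depth cannot be read from TPM and is unknown here, and values carry no counting interval. In whole tissue, fewer cells of a type and less RNA per cell cannot be told apart.

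Core promoters of 3 genes are shown as a description of the family's start region, for the genes of highest and lowest level and for one that differed between tissues. They are from RefSeq on GRCm38.p6 and run from 60 bases before to 20 bases after the annotated start. By deposited TPM, Rpl38 was the highest gene of the family and Rps27 the lowest, although the level of Rps27 is uncertain, as described below. Rpl22l1 was one that differed between tissues. Capitals mark the letters CTTTC, a pyrimidine run with a C as in a terminal oligopyrimidine tract, where they lie between 10 bases before and 20 bases after the start on the gene's strand.
Rpl38, chr11:114668520-114668599, plus strand: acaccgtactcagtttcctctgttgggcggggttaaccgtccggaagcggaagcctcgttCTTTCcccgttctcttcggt
Rps27, chr3:90213629-90213708, minus strand: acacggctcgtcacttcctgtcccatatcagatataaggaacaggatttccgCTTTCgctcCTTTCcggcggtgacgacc
Rpl22l1, chr3:28805448-28805527, plus strand: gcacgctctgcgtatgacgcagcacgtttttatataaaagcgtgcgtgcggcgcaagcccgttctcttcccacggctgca

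Promoters were matched for 62 of the 83 genes, beside 27025 genes in all. A gene with several annotated starts was counted if any of them met the condition. CTTTC in the window around the start was found in 14 of the 62 (22.6%) and in 4.43% of all genes. Of the first 10 transcribed bases, 9 or more were C or T in 12 of the 62 (19.4%) and in 3.36% of all genes. In windows reaching 250 bases before the start and 50 bases after it, CCGGAAG, searched on both strands, was present in 40.3% of the 62 and 9.93% of all genes. ATGGCG, also searched on both strands, was present in 30.6% and 10.2%. TATAAA, searched on the gene's strand, was about as frequent in the 62 (9.68%) as in all genes (9.77%), and Rpl22l1 is among the 6 genes that have it. None of these motifs contains another. A match is a description of the letters, not evidence of a factor at work.

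In the GENCODE M21 annotation of GRCm38, the 83 genes lie on 19 chromosomes, with 14 on chromosome 7, among them Rps19, Rpl18 and Rplp2, and 4 (Rpl10, Rpl36a, Rpl39 and Rps4x) on chromosome X. Their transcripts are short: the median length was 937 bases, against 2802 bases for all protein-coding genes. A snoRNA lies inside 30 of the 83 genes (36.1%), 58 snoRNAs in all, against 1.21% of protein-coding genes. Rpl4 holds 5 snoRNAs and Rpl13a holds 4. Rpl13, Rpl13a, Rpl19, Rpl24, Rpl36al and Rps10 overlap another gene on the same strand in this annotation. Whether that affected their deposited values is unknown, since the annotation used for those is not stated.

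The 83 genes were abundant, with a short tail of low ones. In controls the median level was 522 TPM in hippocampus and 548 TPM in amygdala, against 24.5 TPM and 24.8 TPM for all genes tested. In each tissue 75 of the 83 genes (90.4%) had a control mean of 100 TPM or more, which 14.5% of genes tested in hippocampus and 14.9% in amygdala did. Together the 83 genes made up 4.31% to 4.46% of TPM in hippocampus controls and 4.35% to 4.85% in amygdala controls. The small subunit genes had a higher median level (584 TPM in both tissues) than the large subunit genes (483 TPM in hippocampus and 529 TPM in amygdala).

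Rpl38, a large subunit protein, was highest in both tissues, at 1248 ± 61.5 TPM in hippocampus controls and 1305 ± 100 TPM in amygdala controls (SD, n = 4 each). The next in hippocampus controls were Rps15 (1177 ± 27.2 TPM), a protein of the small subunit's head, Rpl23a (1145 ± 62.5 TPM), Rpl41 (1057 ± 26.9 TPM), the smallest ribosomal protein, and Rps21 (1008 ± 52.4 TPM). Rpl38 and Rps15 did not differ beyond their spread in amygdala controls, where Rps15 averaged 1288 ± 93.9 TPM and was followed by Rpl41 (1228 ± 51.3 TPM), Rpl23a (1181 ± 33.3 TPM) and Rplp1 (1056 ± 70.3 TPM). The order of all 83 genes was much the same in the 2 tissues (r = 0.995 and rho = 0.986 for log2 mean control TPM over 83 genes, which share libraries and length scaling).

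The low tail held 8 genes under 100 TPM in both tissues. In hippocampus controls these were Rps27 (10.5 ± 1.59 TPM), Rpl34 (17.4 ± 4.65 TPM), Rps19bp1 (32.2 ± 1.07 TPM), Rpl7l1 (42.8 ± 2.32 TPM), Rps15a (54.0 ± 2.73 TPM), Rps4y2 (56.8 ± 11.9 TPM), Rpl30 (58.5 ± 4.86 TPM) and Rps27l (65.1 ± 6.48 TPM). The same 8 genes were lowest in amygdala controls, from 11.3 ± 1.26 TPM for Rps27 to 72.5 ± 5.77 TPM for Rps4y2. Rpl34, Rpl30, Rps15a and Rps27 have copies elsewhere in the genome that differ from them by few bases or none, and Rps4y2 is an older symbol of Rps4l, annotated in GENCODE as a transcribed processed pseudogene on chromosome 6. The plot of control levels shows the plateau and this tail.

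**Figure D1:**
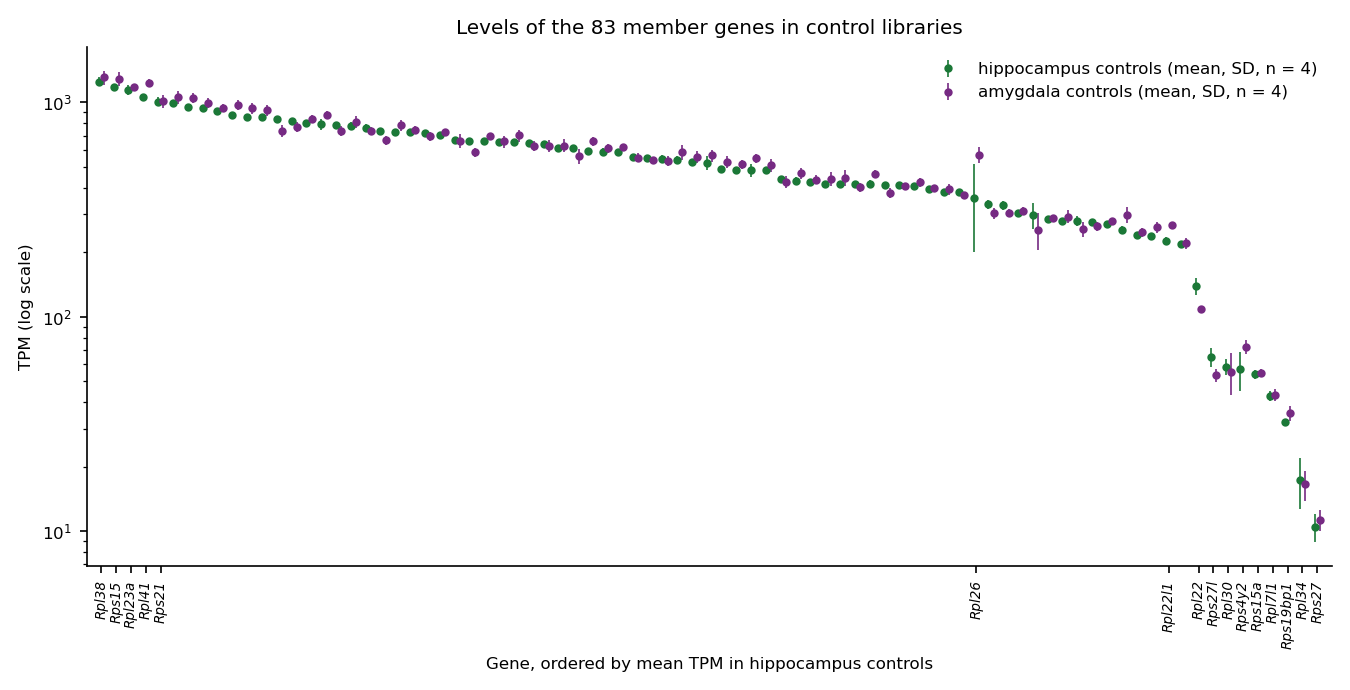
Mean TPM (log scale) of the 83 genes in hippocampus and amygdala controls, ordered by the hippocampus mean, with the 5 highest, the 8 lowest, Rpl26 and the Rpl22 pair labelled; points are means and bars the SD over 4 libraries. Levels run from 1248 TPM for Rpl38 to 10.5 TPM for Rps27 in hippocampus, 75 genes lie at 100 TPM or more in each tissue, and Rpl26, Rpl34 and Rps4y2 have the widest bars in hippocampus.

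The spread between control libraries was below that of abundant genes as a whole in hippocampus and about the same in amygdala. The median SD of log2(TPM + 1) over 4 controls was 0.0461 for the 83 genes and 0.0742 for all genes of at least 100 TPM, these included, in hippocampus, and 0.0793 and 0.0808 in amygdala. The median coefficient of variation over 4 controls was 3.31% in hippocampus and 5.55% in amygdala. Among the steadiest were Rpl8 (0.448%), Rps29 (0.875%) and Rpl32 (1.12%) in hippocampus and Rpl15 (1.88%) and Rps7 (2.63%) in amygdala. The least steady in hippocampus were Rpl26 (44.0%), Rpl34 (26.8%) and Rps4y2 (21.0%). In amygdala they were Rpl30 (22.6%), the stalk gene Rplp0 (19.4%) and Rpl34 (16.1%).

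Of the stalk proteins, which recruit translation factors, Rplp0 is the base and Rplp1 and Rplp2 bind to it as dimers. Rplp1 averaged 988 ± 27.0 TPM and Rplp2 543 ± 24.0 TPM in hippocampus controls, while Rplp0 averaged 298 ± 40.6 TPM. In amygdala controls the values were 1056 ± 70.3 TPM for Rplp1, 534 ± 29.7 TPM for Rplp2 and 255 ± 49.4 TPM for Rplp0. Rpsa, a small subunit protein also known as a laminin receptor, averaged 423 ± 9.57 TPM in hippocampus controls and 436 ± 22.4 TPM in amygdala controls.

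Several genes have a near-identical copy, and the deposited values for a gene and its copy have to be read together. By alignment of coding sequences (at least 95% identity over at least 90% of the length), 77 of the 82 genes with a coding sequence had at least 1 such copy in the annotated transcripts, with a median of 5 and up to 56 for Rpl21. For 12 genes a copy was found under its GENCODE M21 symbol in the deposited tables, with values of its own. Copies listed there under older symbols would be missed. For Rplp2 the match is Wdr89, whose gene-level value need not be that of the copy alone. The case that bears most on the comparisons is Rpl26, a large subunit protein near the exit of the peptide tunnel, and Gm15772, a processed pseudogene at chr5:3236431-3236868 on the plus strand. They differ at 2 of 435 coding bases, C177T and T288C, with Rpl26's base first and positions counted from 1 at the first base of the coding sequence. The windows of 51 coding bases around the 2 differences, from GENCODE M21 on GRCm38, carry the differing base in capitals, and both Rpl26 windows cross an intron.
Rpl26, chr11:68902426-68903212, plus strand, coding bases 152 to 202: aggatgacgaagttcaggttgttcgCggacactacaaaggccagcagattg
Gm15772, chr5:3236582-3236632, plus strand: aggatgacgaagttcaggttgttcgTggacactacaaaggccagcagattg
Rpl26, chr11:68903273-68904368, plus strand, coding bases 263 to 313: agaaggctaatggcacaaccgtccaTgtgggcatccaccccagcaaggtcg
Gm15772, chr5:3236693-3236743, plus strand: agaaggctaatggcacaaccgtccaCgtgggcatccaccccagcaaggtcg

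Rpl26 had 281, 438 and 486 TPM in NCoR1-KO hippocampus, 334, 173 and 408 TPM in SMRT-KO hippocampus, and 140, 404, 515 and 373 TPM in hippocampus controls. Gm15772 had 640, 404 and 392 TPM in the same NCoR1-KO libraries, 579, 884 and 451 TPM in the SMRT-KO libraries, and 734, 541, 423 and 576 TPM in the controls. Libraries low in Rpl26 were high in Gm15772. Summed, the pair came to 874, 945, 937 and 949 TPM in the hippocampus controls, a coefficient of variation of 3.81%, against 44.0% for Rpl26 alone and 22.6% for Gm15772 alone.

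The same held in amygdala, where Rpl26 took between 46.9% and 87.2% of the pair's sum. Rpl26 had 575, 627 and 764 TPM in NCoR1-KO amygdala, 514, 473 and 437 TPM in SMRT-KO amygdala, and 617, 513, 542 and 600 TPM in amygdala controls. Gm15772 had 463, 288 and 112 TPM in the NCoR1-KO libraries, 451, 496 and 495 TPM in the SMRT-KO libraries, and 446, 514, 433 and 387 TPM in the controls. The pair's sum was 1038, 915 and 876 TPM in NCoR1-KO amygdala, 965, 968 and 932 TPM in SMRT-KO amygdala, and 1062, 1027, 975 and 987 TPM in amygdala controls, so the NCoR1-KO and SMRT-KO libraries, which did not overlap for Rpl26 alone, overlapped for the sum.

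Other pairs shared the sum more evenly across libraries. Rpl30 and Gm12191 differ at 1 of 345 coding bases (G96A), and Rpl30 took 6.57% to 12.9% of their sum. Rpl34 and Rpl34-ps1 differ at 2 of 351 bases, and Rpl34 took 2.39% to 4.31%. Rpl31 and Rpl31-ps12 differ at 4 of 375 bases, and Rpl31 took 37.1% to 47.1%. For Rpl30, Rpl34 and Rpl26 the level of the gene alone is therefore uncertain, and the plot of genes with their copies shows both parts. Rps27 matches Rps27rt, annotated on chromosome 9, at all 252 coding bases; Rps27rt was not analysed here, and the level of Rps27 is uncertain for the same reason. Rpl22l1 differs from Gm15421 at 2 of 366 bases, but took 97.4% to 99.1% of the sum in every library.

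**Figure D2:**
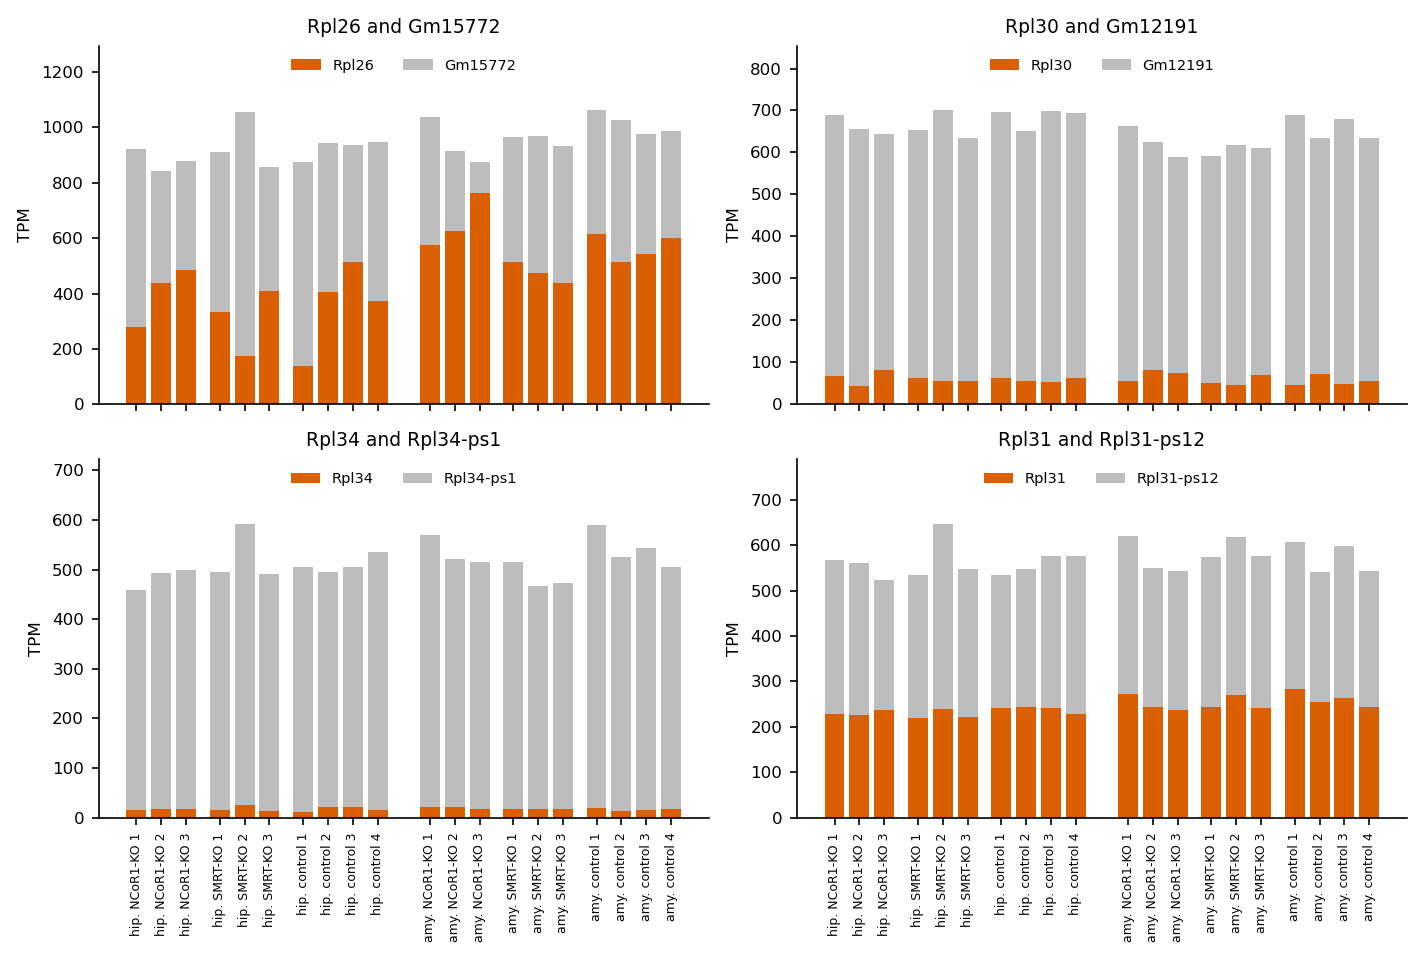
TPM of Rpl26, Rpl30, Rpl34 and Rpl31 (orange) with that of their near-identical copy stacked on top (grey) in each of the 20 libraries, hippocampus left and amygdala right, with NCoR1-KO, SMRT-KO and control libraries in that order. Rpl26 ranges from 140 to 764 TPM while the height of the stack changes far less, and Rpl30 and Rpl34 are the thin lower parts of their stacks.

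Some paralogs were also compared as levels, since TPM is scaled for length. Rpl7l1, a relative of Rpl7 known in ribosome assembly, was at 42.8 TPM in hippocampus controls, where Rpl7 was at 662 ± 20.4 TPM. Rpl36al (276 ± 10.7 TPM) and Rpl36a (409 ± 15.8 TPM) were of similar size in hippocampus controls, and likewise in amygdala controls (264 ± 12.6 TPM and 405 ± 12.9 TPM). Rps27l, a stress-responsive relative of Rps27, was above the deposited value of Rps27 in all groups. That value is uncertain, since Rps27rt has the same coding bases, so which of Rps27 and Rps27l is more abundant cannot be told. Rps4x (646 ± 21.9 TPM in hippocampus controls) was far above Rps4y2. Rpl3 (907 ± 11.8 TPM), Rpl10 (726 ± 25.9 TPM) and Rpl39 (483 ± 35.7 TPM) were expressed where Rpl3l, Rpl10l and Rpl39l stayed under 1 TPM.

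Between tissues, the clearest difference within the family was the balance of Rpl22 and Rpl22l1, paralogs that bind RNA in the large subunit. Rpl22 had 152, 123, 147 and 135 TPM in hippocampus controls, against 114, 107, 106 and 107 TPM in amygdala controls. Every hippocampus control was above every amygdala control, and its log2(TPM + 1) difference was 0.35 ± 0.06 (SE, limma, adjusted p = 0.000166, Benjamini-Hochberg over all genes tested). Rpl22l1 went the other way, with 215, 220, 226 and 237 TPM in hippocampus controls and 264, 279, 265 and 259 TPM in amygdala controls, which did not overlap (-0.25 ± 0.06, limma adjusted p = 0.0022). The ratio of Rpl22 to Rpl22l1 was 0.558 to 0.705 in hippocampus controls and 0.383 to 0.431 in amygdala controls. In the knockouts it was 0.627 to 0.724 in NCoR1-KO hippocampus and 0.544 to 0.644 in SMRT-KO hippocampus, against 0.365 to 0.374 in NCoR1-KO amygdala and 0.406 to 0.500 in SMRT-KO amygdala, so the ratio was higher in hippocampus than in amygdala for every genotype, without overlap. Amygdala NCoR1-KO libraries all lay below the amygdala controls in this ratio.

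Over the 83 genes, 13 (15.7%) passed between hippocampus and amygdala controls, against 32.5% of the 14210 genes tested. Of these, 5 were higher in hippocampus (13.2% of all genes tested were) and 8 lower (19.3% of all genes were). Besides Rpl22, the higher ones included Rpl7 (0.18 ± 0.05), Rpl4 (0.14 ± 0.04) and Rpl5 (0.12 ± 0.04), which carries 5S ribosomal RNA into the large subunit. Besides Rpl22l1, the lower ones were Rpl41 (-0.22 ± 0.05), Rps19 (-0.23 ± 0.07), a gene mutated in Diamond-Blackfan anaemia in humans, Rpl39 (-0.18 ± 0.06), Rpl29 (-0.16 ± 0.05), Rps2 (-0.16 ± 0.05), Rps24 (-0.15 ± 0.06) and Rps29 (-0.14 ± 0.05). The median difference of the 83 genes, -0.04, was near that of all genes (-0.03), and its sign changed when a trend with transcript length was removed (0.01).

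Rpl41, for example, had 1044, 1085, 1072 and 1025 TPM in hippocampus controls and 1261, 1274, 1161 and 1216 TPM in amygdala controls, without overlap. The split of 5 higher and 8 lower depended on scaling: it was 5 and 4 under quantile normalization, 8 and 2 with median-of-ratios size factors, 5 and 5 without the ribosomal RNA precursor Rn45s and 12 and 2 with the length trend removed. The count fell to 8 without hippocampus control 1, 2 or 4 or without amygdala control 2. Rpl22, Rpl7, Rpl22l1 and Rpl41 passed whichever single library was left out, while Rpl5, Rpl4, Rpl39, Rps2, Rps19 and Rpl29 were each lost without at least 1 library. Rps15a, summed with its copies Rps15a-ps4 and Rps15a-ps6, also passed (-0.25 ± 0.08, adjusted p = 0.020), whereas Rps15a alone did not (-0.02, adjusted p = 0.822).

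Markers of other cells and regions differed between the same controls: all 5 oligodendrocyte markers passed as higher in hippocampus (median log2 difference 1.41), all 5 microglia markers as lower (-0.37) and 3 of 5 striatum markers as lower (-1.50). Of 5 neuron markers 3 passed as lower (-0.31), and of 5 endothelial markers 1 did. Of 4 dentate gyrus markers tested, 2 passed as higher and 1 as lower (1.19), of 4 choroid plexus markers 1 as higher (1.81), and of 5 thalamus markers 1 as higher and 1 as lower (0.04). Their part in the differences of ribosomal protein genes was not tested.

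With neuronal loss of NCoR1 the summed level of the family overlapped that of controls. In hippocampus the 83 genes made up 4.45%, 4.27% and 4.33% of TPM in NCoR1-KO libraries, against 4.34%, 4.31%, 4.46% and 4.46% in controls. In amygdala they made up 4.78%, 4.36% and 4.2% in NCoR1-KO libraries, against 4.85%, 4.49%, 4.47% and 4.35% in controls. The groups overlapped in both tissues, and NCoR1-KO amygdala 1 and amygdala control 1 were the highest of all 20 libraries.

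In SMRT-KO hippocampus the share was 4.30%, 4.49% and 4.13%, which covered the range of the controls. In SMRT-KO amygdala it was 4.31%, 4.27% and 4.17%, below each of the 4 amygdala controls. A library's median deviation, over the 83 genes, from the tissue mean of log2(TPM + 1) was -0.04, -0.04 and -0.08 in SMRT-KO amygdala, against 0.12, 0.02, 0.02 and -0.02 in amygdala controls. In these SMRT-KO libraries 67, 63 and 74 of the 83 genes were below the tissue mean. The like share over all genes is not given here. All genes leaned lower too: 42% of those tested were above 0 in the difference from controls. The ratio of the small to the large subunit sum stayed within a narrow range, 0.706 to 0.745 over the 20 libraries.

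**Figure D3:**
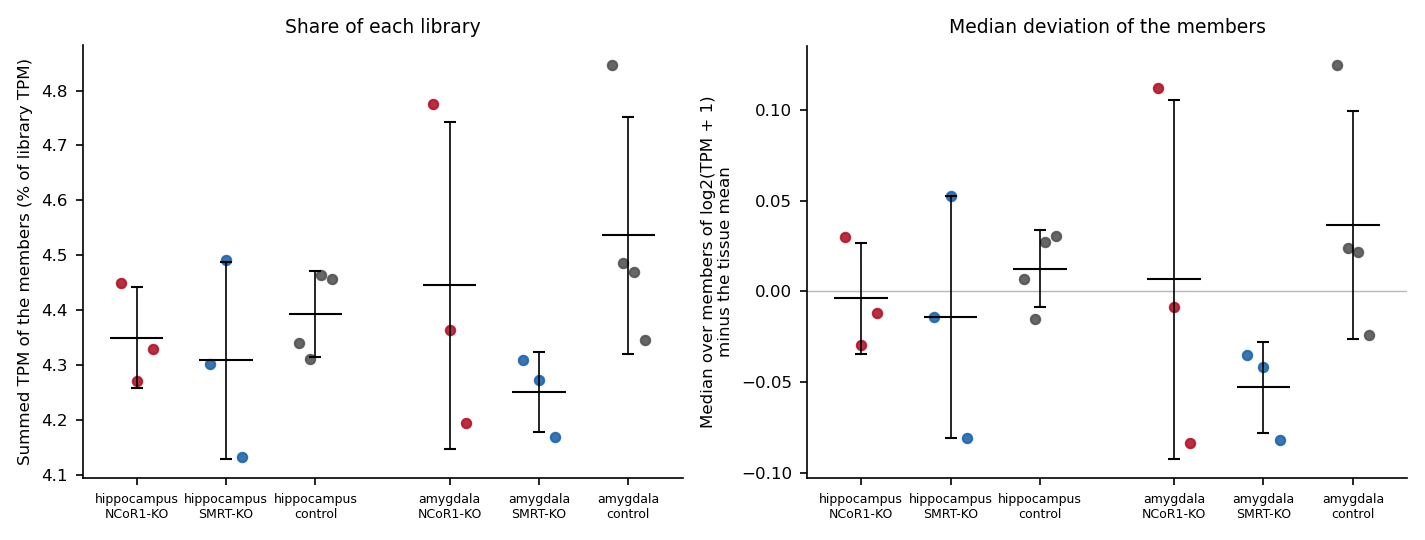
Left, the summed TPM of the 83 genes as a percent of each library's TPM; right, the median over the 83 genes of log2(TPM + 1) minus the tissue mean. Points are libraries, bars are the mean and SD of a group (n = 3 for knockouts, 4 for controls), and neither axis starts at 0; the SMRT-KO amygdala libraries, at 4.17% to 4.31%, are the group below all controls of its tissue.

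In NCoR1-KO hippocampus none of the 83 genes passed against controls, and 0% of the 14501 genes tested did (limma, smallest adjusted p of the 83 = 0.998). At an unadjusted p under 0.05, 2 of the 83 were higher (1.88% of all genes were) and 0 lower (2.65% of all genes were). The median log2 difference was -0.02 beside 0.00 for all genes, with 53 of the 83 below 0 and 30 above, where 50% of all genes were above, and the median SE of a gene was 0.06. The smallest unadjusted p was that of Rplp0, which had 375, 332 and 431 TPM in NCoR1-KO libraries and 339, 327, 266 and 261 TPM in controls. NCoR1-KO libraries 1 and 3 were above all controls and NCoR1-KO library 2 was not (0.35 ± 0.12, limma adjusted p = 0.998). Rps19bp1 (0.15 ± 0.07) and Rps27l (0.21 ± 0.16) came next on the higher side, and Rpl17 (-0.09 ± 0.05), Rpl3 (-0.07 ± 0.04) and Rpl22l1 (-0.09 ± 0.06) on the lower, none of which passed. Rn45s had 16599, 11795 and 10388 TPM in NCoR1-KO libraries and 32837, 24524, 18677 and 22744 TPM in controls, without overlap. Its log2 difference was -0.93 (unadjusted p under 0.05, limma). What this does to the relative values of the 83 genes was not tested.

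In SMRT-KO hippocampus likewise 0 of the 83 genes passed against controls, and 0% of all genes tested did (limma, smallest adjusted p of the 83 = 0.779). The median difference was -0.03 beside -0.02 for all genes, with 62 of the 83 genes below 0 and 44% of all genes above 0. It was -0.06 without SMRT-KO library 2 and 0.00 without SMRT-KO library 3. By unadjusted p under 0.05, 1 gene was lower and 0 higher, beside 3.48% and 2.13% of all genes. That gene, Rps15a, had 51.0, 48.5 and 48.7 TPM in SMRT-KO libraries and 56.6, 55.8, 52.9 and 50.7 TPM in controls, which overlapped (-0.12 ± 0.05). Summed with its copies Rps15a-ps4 and Rps15a-ps6, its difference was -0.06 ± 0.07 (limma adjusted p = 0.876). The values of Rpl5 (-0.10 ± 0.05), Rpl36a (-0.10 ± 0.05), Rpl36al (0.10 ± 0.05), Rps20 (0.08 ± 0.07) and Rps26 (0.06 ± 0.06) did not pass either. Rn45s had 9527, 15528 and 9993 TPM in SMRT-KO libraries, below each control (-1.09, unadjusted p under 0.05, limma). All 5 dentate gyrus markers were below 0 (median -0.38), and all 5 thalamus (0.61) and 5 oligodendrocyte markers (0.40) were above 0, with none passing. Their part in these differences was not tested.

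NCoR1-KO against SMRT-KO hippocampus gave 0 of 83 genes and 0% of all genes tested (limma). At an unadjusted p under 0.05, 2 of the 83 were higher and 2 lower, beside 3.82% and 2.77% of all genes. The median was 0.01, with 52 genes above 0, where 55.7% of all genes were, and was -0.02 without SMRT-KO library 3. Rplp0 had the largest difference, with 375, 332 and 431 TPM in NCoR1-KO and 260, 268 and 229 TPM in SMRT-KO libraries, which did not overlap (0.58 ± 0.13, limma adjusted p = 0.704). Rps20, a small subunit protein, had 517, 458 and 475 TPM in NCoR1-KO and 547, 575 and 534 TPM in SMRT-KO libraries, again without overlap (-0.19 ± 0.07, limma adjusted p = 0.728). Rpl5 (0.14 ± 0.05), Rps18 (0.11 ± 0.07), Rpl22l1 (-0.14 ± 0.06) and Rpl36al (-0.10 ± 0.05) were the others of smallest p on each side, and none passed. All 5 dentate gyrus markers were above 0 (median 0.43), 3 of them at an unadjusted p under 0.05 (limma). All 5 thalamus markers were below 0 (-0.79). None of these markers passed, and their part in the differences of the 83 genes was not tested.

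In NCoR1-KO amygdala 0 of the 83 genes passed against controls, where 0.411% of the 14606 genes tested did (limma, smallest adjusted p of the 83 = 0.342). The median difference, -0.03, equalled that of all genes to 2 decimals, and its sign changed with median-of-ratios size factors (0.01) and without NCoR1-KO amygdala 3 (0.01). It was below 0 for 59 of the 83 genes, and 41.7% of all genes were above 0. With no adjustment, 1 of the 83 was higher and 0 lower at p under 0.05, beside 3.3% and 9.81% of all genes. On the higher side the genes of smallest p were Rpl34 (0.29 ± 0.12), Rpl26 (0.20 ± 0.10) and Rpl30 (0.35 ± 0.19). Each of these has a near-identical copy in the tables, and summed with it the difference was -0.01 for Rpl34, -0.11 for Rpl26 and -0.08 for Rpl30. On the lower side were Rps4x (-0.10 ± 0.05), Rps13 (-0.09 ± 0.05) and Rps12 (-0.13 ± 0.07), and none of the 6 passed. All 5 microglia markers were lower at an unadjusted p under 0.05 (limma, median -0.31), as were 3 of 5 astrocyte (-0.21) and 2 of 5 endothelial markers (-0.20). The 5 oligodendrocyte markers were below 0 (-0.25), while 4 of 5 striatum markers were above 0 (0.10). None of these markers passed, and their part in the differences of the 83 genes was not tested.

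Of the 4 comparisons of a knockout with its controls, the family's median was farthest from 0 in SMRT-KO amygdala, where no single gene passed. The median difference from controls was -0.09 beside -0.03 for all genes tested, and 77 of the 83 genes were below 0, while 42% of all genes were above 0. None of the 83 passed, against 0.11% of all genes (limma). At an unadjusted p under 0.05, 17 of the 83 (20.5%) were lower and 1 higher, beside 13.5% and 8.42% of all genes. SMRT-KO and control libraries did not overlap, with SMRT-KO lower, for 20 of the 83 (24.1%), beside 12.2% of all genes. The median stayed below 0 in each alternative and with each library left out, between -0.11 and -0.05.

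Rps27, a zinc-finger protein of the small subunit, was at 6.06, 5.05 and 8.45 TPM in SMRT-KO amygdala, against 11.6, 11.5, 12.6 and 9.61 TPM in amygdala controls. All SMRT-KO libraries were below all controls (-0.73 ± 0.14, limma adjusted p = 0.0572). Its level is uncertain, since Rps27rt has the same coding bases and was not analysed. Rpl39, a small protein of the peptide tunnel, was at 496, 464 and 441 TPM in SMRT-KO and 575, 539, 561 and 516 TPM in controls (-0.23 ± 0.06, limma adjusted p = 0.0795). Rpl17 was at 721, 659 and 623 TPM in SMRT-KO and 850, 764, 778 and 740 TPM in controls (-0.23 ± 0.07, limma adjusted p = 0.0941). For Rpl39 and Rpl17 too the libraries did not overlap. Without SMRT-KO amygdala 1, 5 of the 83 genes passed, Rps27, Rpl39 and Rpl17 among them, and with a filter of mean TPM of at least 5 in place of the main filter Rps27 passed.

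Against the direction of the family, Rps19bp1 was at 38.5, 40.0 and 42.2 TPM in SMRT-KO amygdala and 31.4, 37.8, 35.8 and 37.4 TPM in controls, without overlap (0.18 ± 0.07, limma adjusted p = 0.169). Rps20 (0.08 ± 0.07) and Rpl34 (0.10 ± 0.12) also had positive values that did not pass. Rpl34 summed with Rpl34-ps1 was negative (-0.16).

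All 5 oligodendrocyte markers had an unadjusted p under 0.05 and were higher in SMRT-KO libraries, with a summed level of 6801 to 10257 TPM in SMRT-KO and 2250 to 8145 TPM in controls. The 5 striatum markers did so too, at 494 to 826 TPM in SMRT-KO and 156 to 565 TPM in controls, and none of these 10 markers passed adjustment. Of 5 neuron markers, 3 had an unadjusted p under 0.05 and were lower (1 was higher), with a summed level of 3780 to 3968 TPM in SMRT-KO and 4490 to 5253 TPM in controls and a median difference of -0.15. The 1 that passed was Snap25 (-0.85 ± 0.08, limma adjusted p = 0.00507), the gene whose locus carries the Cre insertion. Snap25 is part of the summed level, which thus does not measure neurons apart from the driver's locus. In NCoR1-KO amygdala against controls 1 of 5 neuron markers passed as lower too, with a median difference of 0.03. Rn45s took 1.77% to 3.26% of TPM in SMRT-KO libraries and 1.25% to 2.15% in controls. Their part in the shift of ribosomal protein genes was not tested.

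**Figure D4:**
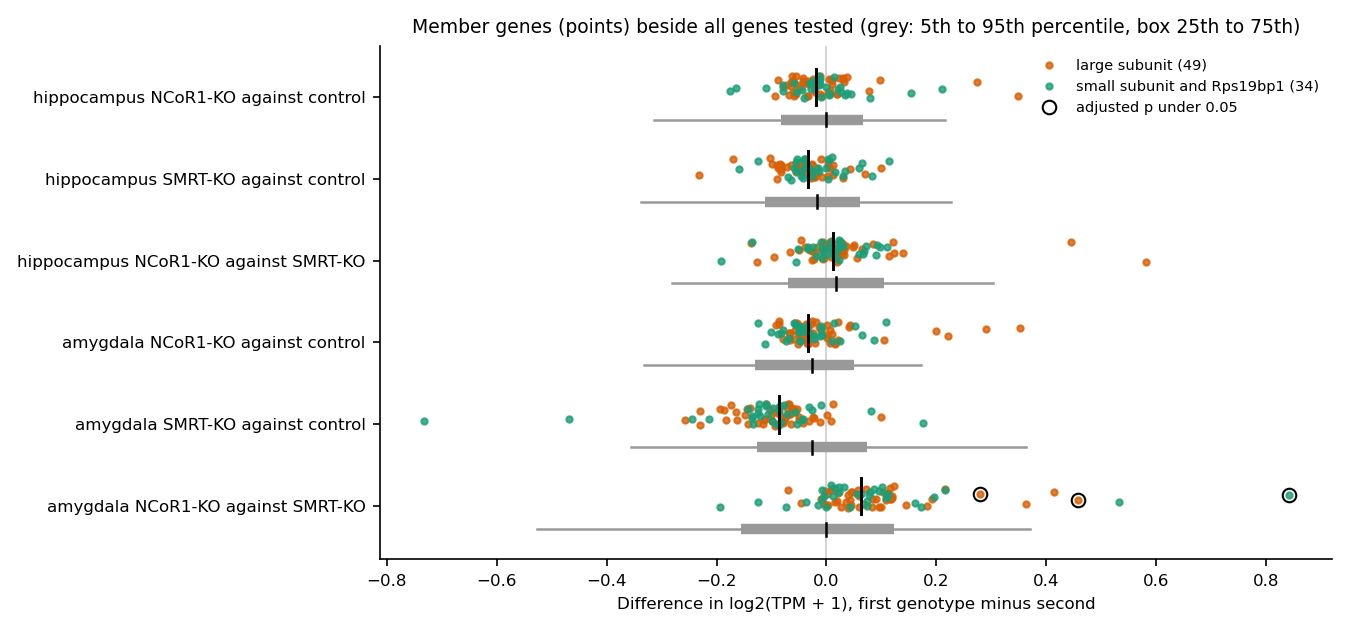
Difference in log2(TPM + 1) of each of the 83 genes in 6 genotype comparisons (points, with the median as a black line), above the distribution over all genes tested (grey line from the 5th to the 95th percentile, box from the 25th to the 75th, tick at the median). The 83 genes lie close to the median of all genes except in SMRT-KO amygdala, where their median is -0.09 against controls, and in the contrast of the knockouts in amygdala, where the 3 circled genes passed.

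Between the knockouts in amygdala, 3 of the 83 genes passed, all higher in NCoR1-KO, while 11.5% of all genes tested passed, 5.03% higher and 6.46% lower. The median difference was 0.06 beside 0.00 for all genes, with 68 of the 83 genes above 0 and 15 below, where 49.9% of all genes were above. Under quantile normalization 45 were above and 38 below. At an unadjusted p under 0.05, 10 of the 83 (12%) were higher and 1 lower, beside 15.2% and 15.9% of all genes.

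Rps27 was at 11.5, 13.3 and 12 TPM in NCoR1-KO amygdala and at 6.06, 5.05 and 8.45 TPM in SMRT-KO amygdala. The NCoR1-KO libraries were all above the SMRT-KO libraries and within or just above the range of controls (0.84 ± 0.15, limma adjusted p = 0.0115). Rps27rt, identical to Rps27 in coding bases, was not analysed, so a difference for their sum was not tested. The adjusted p was 0.0503 without NCoR1-KO amygdala 2, where the call was lost, and as low as 0.0111 with another library left out.

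Rpl22l1 was at 297, 282 and 284 TPM in NCoR1-KO and 261, 237 and 214 TPM in SMRT-KO amygdala, without overlap (0.28 ± 0.07, limma adjusted p = 0.027). The controls, at 259 to 279 TPM, lay below each NCoR1-KO library and overlapped the highest SMRT-KO library. The call was lost without NCoR1-KO amygdala 1, 2 or 3 or SMRT-KO amygdala 2 or 3, with adjusted p up to 0.0911, and with the length trend removed. Its partner Rpl22 was at 109, 105 and 104 TPM in NCoR1-KO and 106, 96.2 and 107 TPM in SMRT-KO amygdala, which overlapped.

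Rpl26 passed alone (0.46 ± 0.11, limma adjusted p = 0.0262), with the values given above. Summed with Gm15772 its difference was -0.02 ± 0.06 (limma adjusted p = 0.849), an alternative chosen after the values were seen. The call for Rpl26 alone was also lost without NCoR1-KO amygdala 2 or 3 or without SMRT-KO amygdala 2 or 3. As a count, 0 genes passed without NCoR1-KO amygdala 2, 1 without NCoR1-KO amygdala 3 or SMRT-KO amygdala 2 or 3, and 5 without SMRT-KO amygdala 1.

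Rplp0 had 298, 266 and 319 TPM in NCoR1-KO and 229, 218 and 213 TPM in SMRT-KO amygdala, again without overlap, and did not pass (0.41 ± 0.14, limma adjusted p = 0.0682). In both tissues Rplp0 was thus higher in each NCoR1-KO than in each SMRT-KO library, while the controls, at 210 to 339 TPM, spanned much of that range. Labels do not tell whether same-numbered libraries of both tissues share an animal, so the tissues may not be independent. On the lower side Rps20 had -0.19 ± 0.08 and passed under quantile normalization, and Rps19bp1 (-0.12 ± 0.07) and Rpl23a (-0.07 ± 0.07) did not pass. Of 5 microglia markers 4 passed as lower in NCoR1-KO (median -0.34), and the 5 oligodendrocyte markers (-1.08) and 5 striatum markers (-1.29) were all below 0 with none passing. Of 5 astrocyte and 5 endothelial markers, 1 each passed as lower, and of 5 thalamus markers 1 passed as higher and 1 as lower. Rn45s took 1.23% to 1.49% of TPM in the NCoR1-KO libraries, against 1.77% to 3.26% in the SMRT-KO libraries, and passed as lower (-0.81 ± 0.23, limma adjusted p = 0.0476). Their part in these differences was not tested.

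**Figure D5:**
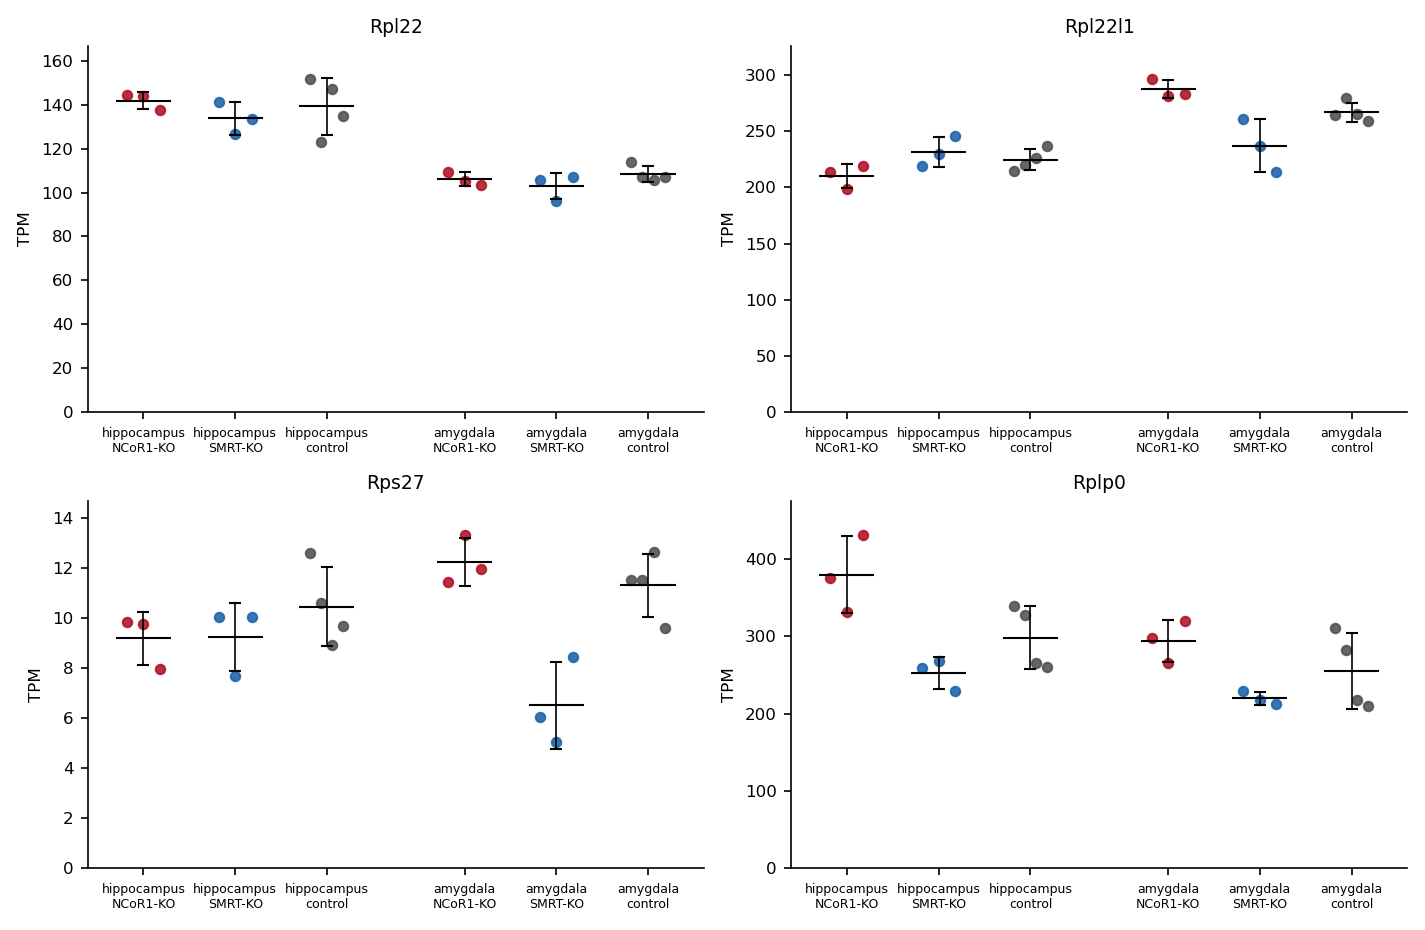
TPM of Rpl22, Rpl22l1, Rps27 and Rplp0 in each library (points), with the mean and SD of each group (n = 3 for knockouts, 4 for controls), axes starting at 0. Rpl22 is higher in every hippocampus library than in any amygdala library, Rpl22l1 is lower in each hippocampus control than in any amygdala control, the 3 SMRT-KO amygdala libraries are the lowest of their tissue for Rps27, and Rplp0 is higher in NCoR1-KO than in SMRT-KO libraries of each tissue.

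Whether a knockout effect differed between tissues was tested directly in a joint fit of all 20 libraries. For SMRT-KO, 0 of the 83 genes and 0% of the 14210 genes tested passed (limma). The effect in hippocampus minus that in amygdala was 0.57 ± 0.20 for Rps27 (limma adjusted p = 0.448), 0.22 ± 0.08 for Rpl22l1 (limma adjusted p = 0.464) and 0.19 ± 0.09 for Rps26. Without adjustment and at p under 0.05, 3 of the 83 were above 0 and 0 below, beside 4.02% and 4.83% of all genes. The difference was above 0 for 74 of the 83 genes and for 54.1% of all genes, with a median of 0.06 beside 0.02 for all genes, and the median was 0.00 under quantile normalization. The 3 genes of smallest p below 0 were Rps19bp1 (-0.11 ± 0.09), Rpl8 (-0.04 ± 0.08) and Rpl37 (-0.04 ± 0.09).

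For NCoR1-KO, again 0 of the 83 genes and 0% of all genes passed (limma, smallest adjusted p of the 83 = 0.998). Unadjusted p was under 0.05 for 1 gene: 0 of the 83 were above 0 and 1 below, beside 1.71% and 1.96% of all genes. The median was 0.02 beside 0.03 for all genes, with 47 of the 83 and 59.1% of all genes above 0, and was -0.03 without NCoR1-KO amygdala 3 and 0.07 without NCoR1-KO amygdala 1. Rpl22l1 had the smallest unadjusted p (-0.20 ± 0.08), with 214, 199 and 219 TPM in NCoR1-KO hippocampus against 215 to 237 TPM in its controls, and 297, 282 and 284 TPM in NCoR1-KO amygdala against 259 to 279 TPM in its controls. Rps27 (-0.27 ± 0.20) and Rpl34 (-0.35 ± 0.27) were the other genes of smallest p below 0, and Rps7 (0.07 ± 0.05) and Rpl39 (0.12 ± 0.10) were among those above 0.

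Other genes of the translation machinery were counted from lists. In each knockout against control, in both tissues, none of the genes listed as ribosome components with other symbols (Fau and Gnb2l1 among them), elongation factors and other terminal oligopyrimidine mRNAs, initiation factors, ribosome biogenesis factors, RNA polymerase I, the mTOR pathway and mitochondrial ribosomal proteins passed (limma). In SMRT-KO amygdala the median differences were -0.05 for elongation factors and other terminal oligopyrimidine mRNAs (9 of 13 below 0), -0.05 for biogenesis factors (33 of 48 below 0) and -0.01 for mitochondrial ribosomal proteins (40 of 76 below 0). They were -0.06 for RNA polymerase I (13 of 14 below 0) and -0.04 for initiation factors (29 of 36 below 0). The medians for the cytosolic genes and for all genes tested were -0.09 and -0.03.

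Between the knockouts in amygdala, where 5.03% of all genes tested passed as higher and 6.46% as lower, 4 of 48 biogenesis factors passed as higher in NCoR1-KO, among them Nop56 (0.21 ± 0.05), part of snoRNA particles, and Rrp1 (0.20 ± 0.05), and 1 as lower, Nhp2 (-0.23 ± 0.06). Of 27 mTOR pathway genes 3 passed as higher, including the Rag GTPase genes Rragb (0.40 ± 0.09) and Rraga (0.20 ± 0.05), and 1 as lower, Rictor (-0.46 ± 0.10), a subunit of mTOR complex 2. Naca (0.21 ± 0.05), whose product binds nascent chains at the ribosome, was the 1 of 13 elongation and terminal oligopyrimidine genes that passed, and none of 76 mitochondrial ribosomal protein genes did.

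Between hippocampus and amygdala controls, where 13.2% of all genes tested passed as higher and 19.3% as lower, 3 of 76 mitochondrial ribosomal protein genes passed as higher in hippocampus and 10 as lower, and 6 of 48 biogenesis factors as higher, such as Bop1 (0.27 ± 0.06) and Brix1 (0.24 ± 0.06), and 2 as lower. Of 36 initiation factors 3 were higher, among them the helicase gene Eif4a1 (0.24 ± 0.04), and 7 lower, among them Eif4g3 (-0.18 ± 0.04), a scaffold of the cap-binding complex. Of 14 RNA polymerase I genes 1 was higher, Ubtf (0.22 ± 0.04), which sets up transcription of ribosomal RNA genes, and 5 lower, among them Cd3eap (-0.40 ± 0.06). Of 27 mTOR pathway genes 1 was higher, Tsc2 (0.29 ± 0.06), an inhibitor of the pathway, and 6 lower. Of 13 elongation and terminal oligopyrimidine genes Eif4b (0.14 ± 0.04) and Eef1a1 (0.12 ± 0.04) were higher and Nap1l1 (-0.42 ± 0.05) was lower.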

How the data were processed

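Messenger RNA of whole hippocampus and amygdala was measured in 20 libraries. The authors deposited gene-level TPM, a table of 23412 symbols per tissue. The submitters' processing notes name RSEM 1.3.3, STAR 2.5.3a, fastp 0.21.0, bcl2fastq and the build mm10, with no role or order. Which gene annotation was used is not stated there. The notes do not say how reads that match several genes, or the strand, were handled. TPM is relative, so a change in abundant transcripts moves all others.

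From the deposited TPM, log2(TPM + 1) was fitted in R 4.3.3 with limma 3.58.1, with moderated variances and a trend, over genes of at least 1 TPM in at least 3 of the 10 libraries of a tissue. The 3 genotypes of a tissue shared 1 fit, and the comparisons between tissues used all 20 libraries as 6 unpaired groups. P-values were adjusted by Benjamini-Hochberg over all genes tested, with 0.05 as the threshold, and the procedure was tested on simulated data. Differences on this log2 scale understate changes of low genes. Errors are SE for differences and SD for levels. Lists and sums over the genes were described without a test.

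The genes, lists and rules were chosen with earlier results of these data known. Apart from some results that are not reported here, those named were up to 6 genes that passed in each direction of a comparison, or else up to 3 of smallest p, and the 5 highest and lowest genes by level, paralogs, stalk genes, Rpsa, Rps19bp1 and the 3 most and least variable. From each other list up to 2 genes of smallest p were named. Rps24, Rps29, genes with a copy, and Nhp2, Rraga, Ubtf, Tsc2 and Eef1a1 were named after their values were seen. Near-identical copies were found with BLAST+ 2.17.0 among GENCODE M21 transcripts, from the principal coding sequence of each gene. Positions of gene symbols are from GENCODE M21, where 21737 symbols matched a symbol and 1257 an older one. Alternatives were other pseudocounts, filters, scalings, models and left-out libraries, and sums with copies, which were added after seeing the data.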

Additional observations from a re-analysis of the deposited data

Results flagged for a closer look

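Among 80 groups of 4 control libraries examined, of named genes and of family sums, 3 had a library whose gap to its nearest neighbour exceeded Dixon's critical share of the group's range. Chance flags about 1 in 20 groups. Rpl22 in amygdala controls had a high control 1, at 114 TPM against 106 to 107 TPM in the other 3 (gap over range 0.832). Rps19 in amygdala controls also had a high control 1, at 336 TPM against 283 to 289 TPM (0.891). The ratio of the small to the large subunit sum was low in amygdala control 2, at 0.717 against 0.724 to 0.725 (0.864).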

How the results depend on the processing

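Counts of 0 genes passing held in each alternative for NCoR1-KO against control in both tissues, SMRT-KO and NCoR1-KO against SMRT-KO in hippocampus, and both differences between tissues. In SMRT-KO amygdala against control the count was 1 with mean TPM of at least 5 and 0 to 5 with single libraries left out. Between the knockouts in amygdala it was 0 to 5 and between control tissues 8 to 17 with single libraries left out. The median difference in SMRT-KO hippocampus was -0.056 under quantile normalization, -0.0047 with median-of-ratios size factors, -0.0061 with the length trend removed and -0.059 to -1.1e-05 with single libraries left out. Between the knockouts in hippocampus it was -0.011 with size factors, -0.019 with the length trend removed and -0.017 to 0.045 with libraries left out. Between control tissues it was 0.0083 with the length trend removed, for the SMRT-KO difference between tissues 0.0049 under quantile normalization, and for the NCoR1-KO difference -0.031 to 0.075 with libraries left out. When the 12 genes with a copy were summed with it, signs reversed in 19 of 108 values over 9 comparisons, 1 of which passed alone and 0 summed. Of the genes named in a comparison, these were: in amygdala against control for Rpl34 (NCoR1-KO -0.015, SMRT-KO -0.16), Rpl26 (-0.11) and Rpl30 (-0.077) in NCoR1-KO, and for Rpl26 between the knockouts (-0.022). With single libraries left out, Rpl34 in SMRT-KO amygdala ranged from -0.0086, without amygdala control 2, to 0.17, and in the SMRT-KO difference between tissues Rpl8 from -0.10 and Rpl37 from -0.088 to 0.019 and 0.016, both without SMRT-KO hippocampus 3. The cause was not tested. With the replicate number as a block, 4 genes passed between the knockouts in amygdala, where Rpl26 did not (adjusted p = 0.0628, limma), and 17 between control tissues, and counts against control stayed at 0. The labels do not say whether same-numbered libraries of the 2 tissues share an animal. Their deviations correlated from 0.00 to 0.48 over 10 pairs (median 0.147), against -0.354 to 0.237 (median -0.0824) over 24 differently numbered pairs. Not every pair was over 0.1, so they were taken as unpaired, although the data hint at a link. In the main fit, p-values of the comparisons between tissues therefore do not account for a link. What depth limits cannot be given, since it is unknown.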
